A study of Mus musculus with 9 samples.

Results

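The CXC chemokines are small secreted proteins that direct leukocytes, and 10 of their genes were examined in mouse primary renal tubular epithelial cells: Cxcl1, Cxcl2, Cxcl3, Cxcl5, Ppbp, Cxcl9, Cxcl10, Cxcl11, Cxcl12 and Cxcl16. They were matched by gene symbol among the 31167 genes of the deposited expression table, and all 10 were found in it. The cells were primary cultures from C57BL/6 mouse kidney, sequenced as 3 libraries in each of 3 groups. Sham was the control, which carried neither treatment. H/R cells were kept without glucose at 1.0% oxygen for 6 h and then returned to complete medium for 18 h. EGR1OV cells were transfected while partly confluent with a plasmid that carried Egr1, a zinc finger transcription factor, behind the cytomegalovirus promoter. No group was labelled as given an empty plasmid, so the effect of Egr1 protein and the effect of plasmid transfection cannot be told apart in these data. The labels do not state whether the 3 libraries of a group came from separate cultures or animals, so every p-value measures only the spread between these libraries.

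Chemokines of this family have a single residue between their first conserved cysteines and act through receptors coupled to G proteins. Cxcl1, Cxcl2, Cxcl3, Cxcl5 and Ppbp carry the ELR motif ahead of the cysteines, bind Cxcr2 and are known for recruiting neutrophils. Cxcl9, Cxcl10 and Cxcl11 are interferon-inducible, bind Cxcr3 and attract activated T cells and NK cells. Cxcl12 is a largely constitutive ligand of Cxcr4 and Ackr3, and Cxcl16 is made as a membrane-bound protein that binds Cxcr6. In the injured kidney, tubular epithelium is a known source of several of these ligands.

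Values are FPKM, which count fragments relative to exon length and library size. They do not adjust for differences in RNA make-up between libraries, and results under other scalings are given below. The depth recovered from the values was 16183617 to 18384022 reads per library. Egr1 itself, the check of the plasmid, was 6.20, 6.91 and 6.09 FPKM in Sham, 8.57, 7.59 and 7.48 FPKM in H/R and 45.7, 42.2 and 40.1 FPKM in EGR1OV. Its log2 change in EGR1OV against Sham was 2.56 ± 0.0658 (SE, limma adjusted p = 2.19e-09). As a check of the tubular label, the epithelial markers Krt8, Krt18, Cdh1, Epcam, Pax8 and Cdh16 were at 11.8 FPKM or above in every library, while the segment markers Slc34a1, Umod and Slc12a3 were at 0.0362 FPKM or below. The proximal tubule receptor genes Lrp2 and Cubn lay between, at 3.51 to 3.67 FPKM and 0.503 to 0.572 FPKM in Sham. In EGR1OV, Lrp2, Krt8 and Krt18 were called lower, with log2 changes of -1.05, -0.71 and -0.73. Epcam was called higher, with a log2 change of 0.39, and Cdh1, Pax8 and Cdh16 were not called. Macrophage markers were detected too, and the summed level of 9 macrophage markers was 139.9 to 144.1 FPKM in Sham, 116.1 to 123.0 FPKM in H/R and 22.1 to 26.6 FPKM in EGR1OV. In bulk RNA, fewer cells of a type and less RNA per cell cannot be told apart. Gm23935 was the highest gene in 4 libraries, replicate 3 of each group and H/R replicate 2, from 3.27% to 7.34% of the summed FPKM.

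Of the 10 genes, 8 lie on chromosome 5 in a pair of clusters, with Cxcl12 on chromosome 6 and Cxcl16 on chromosome 11. Promoter sequences from RefSeq (GRCm38.p6, 250 bases before to 50 bases after the start) were found for 7 of the 10. The 5 that follow are those of the 4 members with a kB match, all higher in EGR1OV, and of Ppbp, the member with the deepest fall. Capitals mark matches to short motifs, searched on both strands: kB (GGANTTNCC), the interferon-stimulated response element (GAAANNGAA) and AP-1 (TGANTCA). The TATA motif TATAAA is in capitals as well.

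Cxcl1 (chr5:90890995-90891294, plus strand): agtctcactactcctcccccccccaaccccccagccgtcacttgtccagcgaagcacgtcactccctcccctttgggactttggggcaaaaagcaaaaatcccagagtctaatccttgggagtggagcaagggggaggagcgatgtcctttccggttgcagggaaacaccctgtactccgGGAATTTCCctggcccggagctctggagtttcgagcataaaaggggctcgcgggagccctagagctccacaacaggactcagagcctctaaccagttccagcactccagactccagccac
Cxcl2 (chr5:90903649-90903948, plus strand): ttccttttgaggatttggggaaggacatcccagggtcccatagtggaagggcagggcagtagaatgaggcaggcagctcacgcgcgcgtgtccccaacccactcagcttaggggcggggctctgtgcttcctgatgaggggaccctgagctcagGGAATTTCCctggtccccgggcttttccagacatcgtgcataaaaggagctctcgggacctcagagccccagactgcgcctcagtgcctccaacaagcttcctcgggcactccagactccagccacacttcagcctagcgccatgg
Cxcl3 (chr5:90785851-90786150, plus strand): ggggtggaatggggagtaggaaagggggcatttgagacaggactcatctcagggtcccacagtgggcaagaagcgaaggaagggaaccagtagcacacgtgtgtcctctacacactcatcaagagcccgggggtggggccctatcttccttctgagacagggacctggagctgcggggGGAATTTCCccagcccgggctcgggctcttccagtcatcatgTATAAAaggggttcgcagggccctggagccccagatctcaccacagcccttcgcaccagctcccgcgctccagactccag
Cxcl10 (chr5:92348840-92349139, minus strand): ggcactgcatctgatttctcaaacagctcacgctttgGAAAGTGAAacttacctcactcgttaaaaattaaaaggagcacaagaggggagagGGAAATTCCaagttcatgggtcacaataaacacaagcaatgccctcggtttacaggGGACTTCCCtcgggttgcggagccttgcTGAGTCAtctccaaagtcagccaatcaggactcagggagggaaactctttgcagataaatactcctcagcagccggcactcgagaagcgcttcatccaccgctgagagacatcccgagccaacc
Ppbp (chr5:90768268-90768567, plus strand): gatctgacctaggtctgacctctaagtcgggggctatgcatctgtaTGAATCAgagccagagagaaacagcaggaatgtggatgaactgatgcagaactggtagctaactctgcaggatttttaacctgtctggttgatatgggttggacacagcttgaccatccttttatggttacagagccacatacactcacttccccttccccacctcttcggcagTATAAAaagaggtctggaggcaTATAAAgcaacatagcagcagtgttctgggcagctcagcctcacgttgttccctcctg

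The neutrophil-attracting genes Cxcl1, Cxcl2 and Cxcl3 held the same kB match, GGAATTTCC, whose first base lay at -70, -96 and -72 (the start itself is +1 and the base before it -1). The Cxcl10 promoter held 4 matches, the most of the 7, with GAAAGTGAA at -213, kB matches at -158 (GGAAATTCC on the opposite strand) and at -102 (GGACTTCCC), and TGAGTCA at -74. The Ppbp promoter had no kB or interferon element match and instead held TGAATCA at -204 and TATAAA at -30 and -8. In all, 4 of the 7 promoters held a kB match, against 3.95% of the 32851 promoters of the reference table. The 4 include the close paralogs Cxcl1, Cxcl2 and Cxcl3 with the same match, so they are not independent cases. An interferon element match was present in 2 of the 7, Cxcl10 and Cxcl9, against 8.56% of all, and an AP-1 match in 3 of the 7, against 7.81% of all. TATAAA was present in 3 of the 7, against 13.6% of all. No member promoter held the gamma-activated site TTCNNNGAA (8.30% of all) or the EGR1 motif GCGNGGGCG (5.55% of all) in this window, and Cxcl12 held none of the 6 motifs. No match overlapped another. The 4 genes with a kB match were all higher in EGR1OV than in Sham, and of the other 3, Cxcl9 was higher and Ppbp and Cxcl12 were lower. A match is a string of letters in these windows, other forms of each motif were not searched, and binding was not measured. The EGR1 site that the paper tested in the Sox9 promoter has another form, which this search would have missed. The lack of EGR1 matches therefore does not show that these promoters lack EGR1 sites. No promoter entry was found for Cxcl5, Cxcl11 and Cxcl16.

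The first question was which CXC chemokine genes moved with Egr1 overexpression. In EGR1OV, every library was above every Sham library for 8 of the 10 genes and below every Sham library for Ppbp and Cxcl12. Over all 29404 genes with a value above 0, the groups did not overlap for 32.4%, with 17.9% higher and 14.5% lower in EGR1OV. A gene was called when the limma adjusted p was under 0.05 and the change at least 1.3-fold on the log2(FPKM + 1) scale, which understates the change of low genes. Of the 10 members, 8 averaged 0.5 FPKM or more across the 9 libraries and were tested. Of these, 6 were called higher and 2 lower, against 16.4% of 13985 genes called (9.87% higher and 6.51% lower). Cxcl2, Cxcl5 and Cxcl11 reached that average only through EGR1OV, so the count describes the 8 and supports nothing about the family. Without the minimum level, the fit called all 10 (8 higher and 2 lower), against 8.04% of 29404 genes (4.96% higher and 3.08% lower). Quantile normalization turned the split of all called genes from 60.3% higher to 45.9% higher, while the direction of each tested member held under it.

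**Figure D1:**
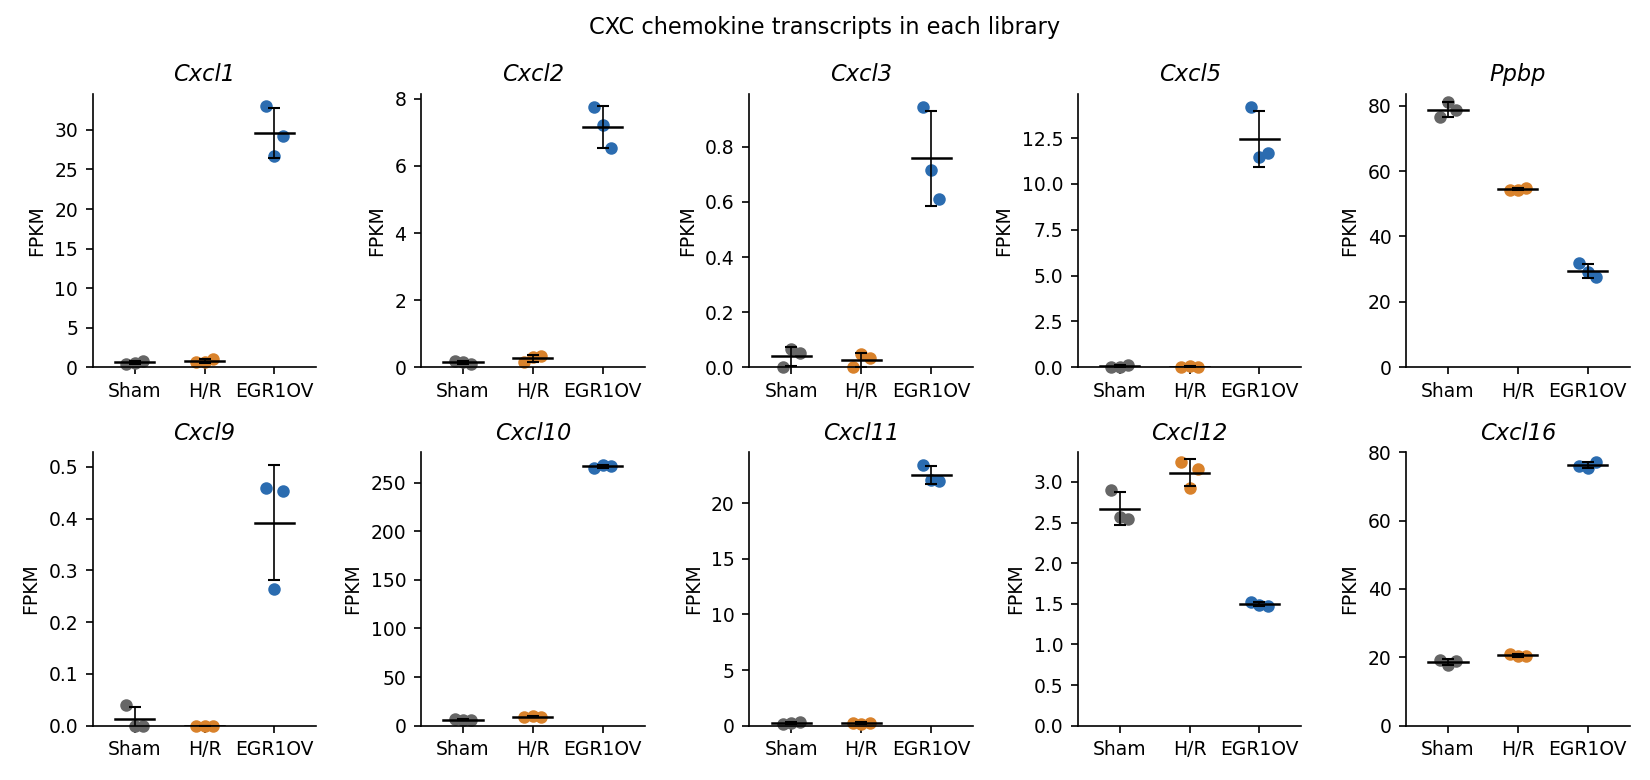
FPKM of each of the 10 CXC chemokine genes in the 9 libraries, with a separate linear axis per gene. Points are libraries (gray Sham, orange H/R, blue EGR1OV) and bars are the mean ± SD of 3 libraries. The EGR1OV points lie above the Sham points for 8 genes and below them for Ppbp and Cxcl12.

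Among the ELR chemokines, Cxcl1, a main neutrophil attractant of injured mouse kidney, was 0.422, 0.581 and 0.775 FPKM in the Sham libraries, 0.593, 0.667 and 1.02 FPKM in H/R and 33.0, 26.7 and 29.2 FPKM in EGR1OV. The EGR1OV libraries stood far apart from both other groups, which overlapped each other. The change against Sham was 4.27 ± 0.116 on the log2 scale (SE, limma adjusted p = 3.19e-09). In reads, 2766 in EGR1OV against 56 in Sham gave a ratio of 50.0 per depth, with a 95% counting interval of 38.4 to 66.4. Intervals of this kind hold only the error of counting. They leave out the spread between libraries, and PCR copies of a molecule could not be told from separate molecules.

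Cxcl2, which shares its receptor and neutrophil activity with Cxcl1, was 0.176, 0.166 and 0.0879 FPKM in Sham and 7.75, 7.22 and 6.52 FPKM in EGR1OV. The ratio of reads was 49.7, with an interval of 29.96 to 89.3, so Cxcl1 and Cxcl2 rose by ratios whose intervals overlap, from starting levels that did not. Cxcl5, an ELR chemokine often made by epithelial cells, was 0, 0.0308 and 0.0975 FPKM in Sham, or 4 reads in all, and 14.2, 11.5 and 11.7 FPKM in EGR1OV. Its ratio of reads was 292, with an interval of 114 to 1074.5, and the log2 change was 3.68 ± 0.0861 (SE, limma adjusted p = 1.08e-09). The starting level of Cxcl5 was at a few reads per library, which is what makes its interval so wide.

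Cxcl3, a close paralog of Cxcl1 and Cxcl2, was in EGR1OV the lowest of the ELR genes. It was 0, 0.0656 and 0.0520 FPKM in Sham and 0.947, 0.717 and 0.612 FPKM in EGR1OV, a ratio of reads of 19.1 with an interval of 9.01 to 48.4. In the fit without a minimum level its log2 change was 0.76 ± 0.0677 (SE, limma adjusted p = 9.97e-05). Cxcl1, Cxcl2 and Cxcl3 resemble each other in sequence, and how reads that fit more than 1 of them were assigned is not given in the sources used here, so their split is uncertain.

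Ppbp, the platelet basic protein gene whose processed product also binds Cxcr2, went the other way. It was 76.5, 81.0 and 78.8 FPKM in Sham, 54.3, 54.2 and 54.8 FPKM in H/R and 31.8, 29.0 and 27.7 FPKM in EGR1OV. None of the 3 groups overlapped another, with H/R between Sham and EGR1OV. The log2 change was -1.39 ± 0.0454 in EGR1OV against Sham (SE, limma adjusted p = 1.28e-08), the 27th largest fall among 13985 genes.

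Of the interferon-inducible ligands, Cxcl10 reached the highest level of the family and the largest change on the log2(FPKM + 1) scale. The ratios of reads of Cxcl5 and Cxcl11 were above its own. Those of Cxcl1 and Cxcl2 were above it as well, but with intervals that contained the Cxcl10 interval. Cxcl10 was 6.62, 5.83 and 5.94 FPKM in Sham and 264.5, 267.6 and 267.5 FPKM in EGR1OV, where it rested on 9850 reads or more per library. Its log2 change of 5.23 ± 0.0482 (SE, limma adjusted p = 5.81e-12) was the 18th largest rise among 13985 genes, and the ratio of reads was 43.5, with an interval of 40.4 to 47.0. Cxcl11 was 0.192, 0.197 and 0.303 FPKM in Sham and 23.4, 22.1 and 22.0 FPKM in EGR1OV, a ratio of reads of 97.8 with an interval of 72.7 to 135. The table lists Cxcl11 as a polymorphic pseudogene, since the C57BL/6 allele does not encode the full protein, and the value counts its RNA. Cxcl9, the ligand that depends most on interferon gamma, rose least in level. It was 0.0403, 0 and 0 FPKM in Sham, or 2 reads, and 0.459, 0.264 and 0.453 FPKM in EGR1OV, or 59 reads, and its log2 change without a minimum level was 0.46 ± 0.0540 (SE, limma adjusted p = 4.92e-04). The ratio of reads was 29.9, with an interval of 7.91 to 252. In EGR1OV, Cxcl9 was thus the lowest member and Cxcl10 the highest, although the genes are close neighbors on chromosome 5.

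The remaining ligands differed in direction. Cxcl16, a scavenger receptor as well as a ligand, was 19.3, 17.8 and 18.8 FPKM in Sham and 76.1, 75.5 and 77.1 FPKM in EGR1OV, a log2 change of 1.98 ± 0.0331 (SE, limma adjusted p = 1.25e-10) and a ratio of reads of 4.09 with an interval of 3.93 to 4.27. Of the 8 genes that were higher it had the lowest ratio and the highest Sham level. Cxcl12 was 2.90, 2.57 and 2.54 FPKM in Sham and 1.52, 1.49 and 1.48 FPKM in EGR1OV. The groups did not overlap, and the log2 change was -0.55 ± 0.0575 (SE, limma adjusted p = 4.75e-05), with a ratio of reads of 0.561 and an interval of 0.507 to 0.620.

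**Figure D2:**
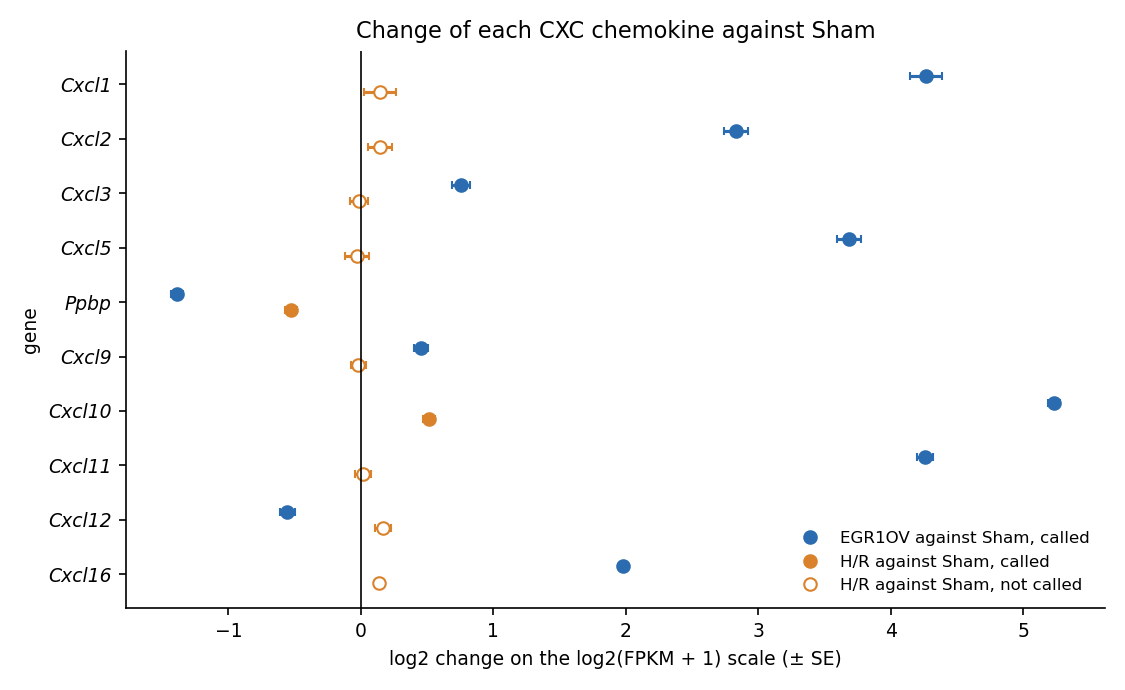
Log2 change of each member against Sham on the log2(FPKM + 1) scale, with SE, from the limma fit of all 9 libraries without a minimum level. Blue points are EGR1OV and orange points are H/R, and filled points were called. The changes in EGR1OV run from -1.39 for Ppbp to 5.23 for Cxcl10, and in H/R Ppbp and Cxcl10 were called.

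The second question was whether H/R, the culture model of ischemia and reperfusion, moved the same genes. Against Sham, 2 of the 8 tested members were called at an adjusted p under 0.05 and 1.2-fold, 1 higher and 1 lower, against 4.25% of 13985 genes called (1.6% higher and 2.65% lower). Without the minimum level 2 of 10 were called, against 1.41% of 29404 genes. With median-ratio scaling, 57.9% of all calls in H/R were higher, against 37.7% in the deposited values, and both member calls held. Cxcl10 was 9.08, 9.73 and 8.71 FPKM in H/R, every library above every Sham library, with a log2 change of 0.51 ± 0.0482 (SE, limma adjusted p = 5.15e-04). Its ratio of reads was 1.4997, with an interval of 1.36 to 1.65. Ppbp fell by 0.53 ± 0.0454 on the log2 scale (SE, limma adjusted p = 3.68e-04), with a ratio of reads of 0.690 and an interval of 0.659 to 0.723.

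Every H/R library was also above every Sham library for Cxcl12 and Cxcl16, so the groups did not overlap for 4 of the 10 members, 3 higher and 1 lower, against 19.4% of all genes (7.09% higher and 12.3% lower). Cxcl16 was 21.1, 20.3 and 20.3 FPKM in H/R, a log2 change of 0.14 ± 0.0331 (SE, limma adjusted p = 0.0317), which is below 1.2-fold and was not called. Cxcl12 was 3.25, 2.93 and 3.16 FPKM in H/R, a log2 change of 0.16 ± 0.0575 (SE, limma adjusted p = 0.09996). For the ELR genes that were high in EGR1OV, the H/R libraries overlapped Sham. The ratio of reads in H/R was 1.29 for Cxcl1, with an interval of 0.901 to 1.86. For Cxcl2 it was 1.86, with an interval of 0.966 to 3.74, which leaves room for a rise that this depth could not show. Cxcl3 and Cxcl5 rested on 5 and 2 reads over the 3 H/R libraries, and Cxcl9 on 0 reads. The intervals of their ratios of reads ended at 2.52, 3.36 and 5.13, so rises below these bounds, or falls, were not detectable at this depth. Cxcl11 was 0.277, 0.186 and 0.267 FPKM in H/R, with a ratio of reads of 1.05 and an interval of 0.683 to 1.62. The exact permutation test, two-sided over 3 against 3 libraries, cannot go below 0.1, and it gave 0.1 for every member in EGR1OV and for Ppbp, Cxcl10, Cxcl12 and Cxcl16 in H/R.

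Set directly against H/R, EGR1OV differed in all 8 tested members, 6 higher and 2 lower, against 18.9% of 13985 genes called (11.9% higher and 6.94% lower). Cxcl2, Cxcl5 and Cxcl11 reached the level for testing only through EGR1OV, so here too the count only describes the 8. The log2 difference was 4.72 ± 0.0482 for Cxcl10 and 4.12 ± 0.116 for Cxcl1, with limma adjusted p of 1.04e-11 and 4.02e-09. Ppbp was lower by a log2 difference of -0.86 ± 0.0454 (limma adjusted p = 3.85e-07), so EGR1OV was below H/R as well as below Sham. Cxcl12 lay on opposite sides of Sham in the treated groups, and its log2 difference between them was -0.72 ± 0.0575 (limma adjusted p = 7.23e-06). Cxcl9 had 59 reads in EGR1OV against 0 in H/R. With the H/R level set to a floor of 3 reads over the group, the ratio per depth was 20.7. This value leaves out the counting error of the 59 reads. Both comparisons with Sham use the same 3 Sham libraries.

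The make-up of the family changed with the levels. The sum over the 10 genes was 107 ± 1.03 FPKM for Sham, 88.6 ± 0.140 FPKM for H/R and 447 ± 6.20 FPKM for EGR1OV (SD, n = 3). Ppbp held 73.4% ± 1.39 of this sum in the Sham libraries, 61.4% ± 0.336 in those of H/R and 6.60% ± 0.388 in those of EGR1OV. Cxcl10 held 5.72% ± 0.450, 10.4% ± 0.594 and 59.7% ± 1.21 in the same order of groups. Cxcl16 held 17.4% in Sham and 17.1% in EGR1OV, since its own rise was close to that of the whole sum. The order by level in Sham was Ppbp, Cxcl16, Cxcl10, Cxcl12, Cxcl1 and Cxcl11, each above the next in all libraries, followed by Cxcl2, Cxcl5, Cxcl3 and Cxcl9, whose neighbors overlapped. H/R kept Ppbp, Cxcl16, Cxcl10, Cxcl12 and Cxcl1 in this order. In EGR1OV the order was Cxcl10, Cxcl16, Cxcl1, Ppbp, Cxcl11, Cxcl5, Cxcl2, Cxcl12, Cxcl3 and Cxcl9, each above the next in all libraries except Cxcl1 and Ppbp, which overlapped at 29.6 ± 3.18 and 29.5 ± 2.095 FPKM (SD, n = 3).

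**Figure D3:**
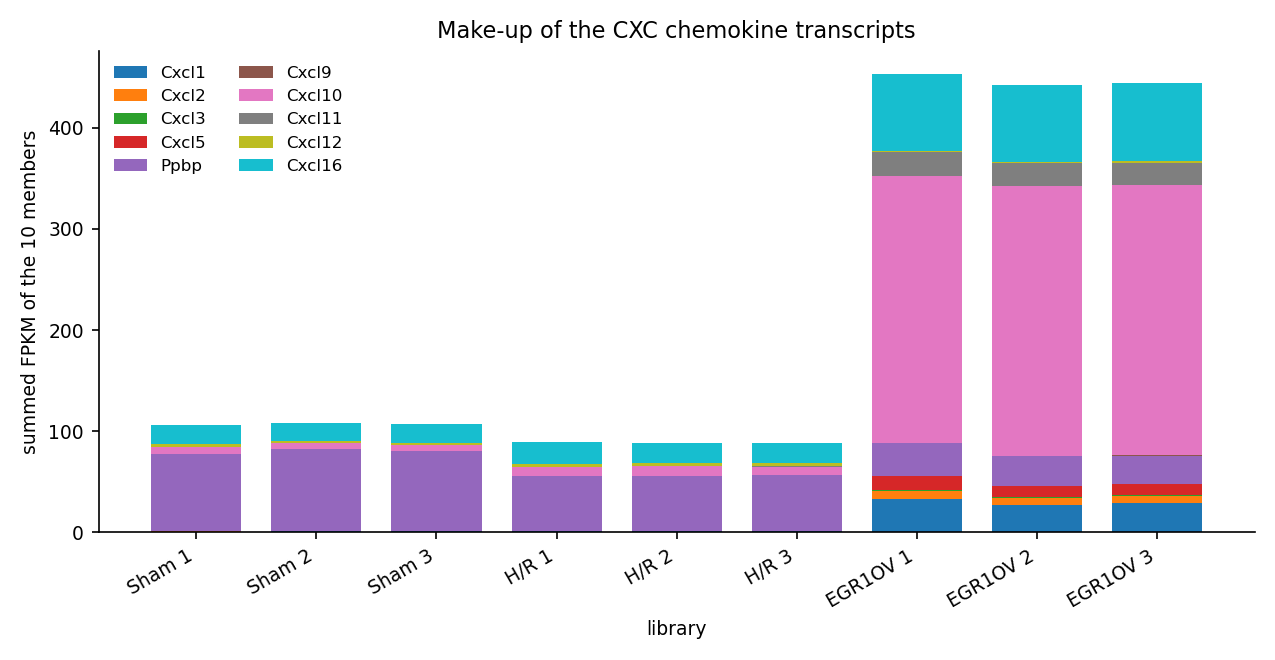
Summed FPKM of the 10 CXC chemokine genes in each library, as stacked bars that start at 0 with a color per gene. Sham and H/R bars stand between 88.5 and 108.3 FPKM and are mostly Ppbp, and EGR1OV bars stand between 442.1 and 453.7 FPKM and are mostly Cxcl10.

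On chromosome 5, genes that rose and genes that fell were neighbors. The first cluster, 146.58 kb long, runs in the order Cxcl5, Ppbp, Pf4, Cxcl3, Gm43085, Cxcl1 and Cxcl2, all on the plus strand. Cxcl5, at 90759360 to 90761624 on chromosome 5 (GRCm38), was among the genes that rose, while Ppbp, at 90768518 to 90770063, fell. Pf4, platelet factor 4, starts 2.372 kb beyond the end of Ppbp, and it fell too. Cxcl1, at 90891241 to 90893115, and Cxcl2, at 90903871 to 90905938, close this cluster and both rose. The unclassified transcript Gm43085, looked up after the values were seen because it lies between them, was at 0 FPKM in Sham and EGR1OV.

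The second cluster starts 1415.4 kb further on and is 44.139 kb long. It holds Cxcl9 (92321347 to 92328079), Cxcl10 (92346638 to 92348889) and Cxcl11 (92359544 to 92365485) on the minus strand. Cxcl10 and Cxcl11 lie within the interval of Art3, an ADP-ribosyltransferase gene on the plus strand, and whether counting used strand is not given in the sources used here, so reads from overlapping parts cannot be assigned with certainty. Art3, also looked up after the values were seen, was at most 0.342 FPKM in any EGR1OV library, far below Cxcl10 and Cxcl11.

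**Figure D4:**
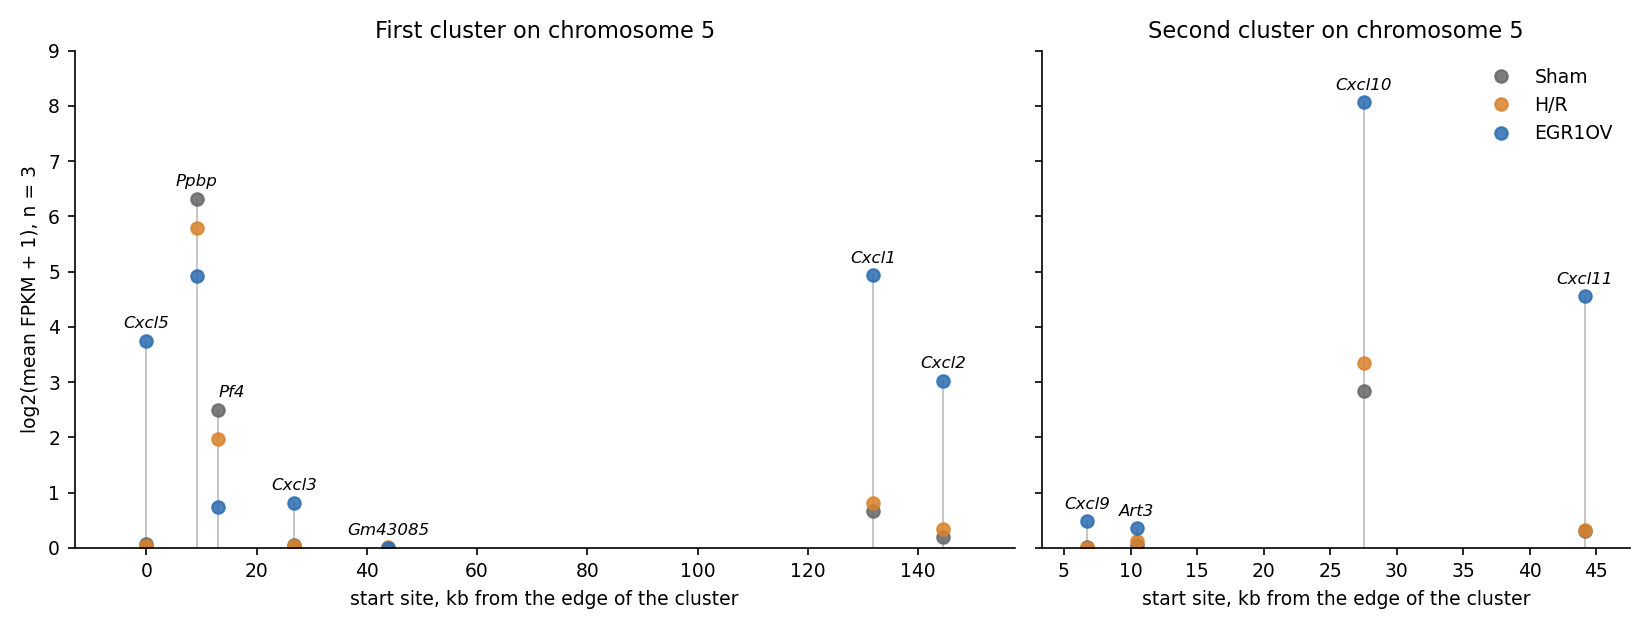
Mean level of the genes in the first (left) and second (right) cluster on chromosome 5, as log2(mean FPKM + 1) of 3 libraries against the distance of the start site from the edge of the cluster in kb. Gray is Sham, orange H/R and blue EGR1OV. Ppbp and Pf4 have Sham on top, and the other chemokine genes have EGR1OV on top.

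Ppbp and Pf4 are best known as genes of megakaryocytes and platelets, and macrophages can express them as well. Pf4 was 4.05, 5.17 and 4.71 FPKM in Sham, 2.83, 3.09 and 2.82 FPKM in H/R and 0.501, 0.934 and 0.577 FPKM in EGR1OV. Its log2 change was -1.76 ± 0.105 in EGR1OV and -0.52 ± 0.105 in H/R (SE, limma adjusted p = 1.02e-06 and 0.0150), and the H/R call was lost without Sham replicate 2 or 3 or H/R replicate 3, at an adjusted p of 0.0522, 0.0516 and 0.0523, and with a pseudocount of 0.1 (adjusted p = 0.0536). Of the megakaryocyte and platelet markers, Gp9 was at 0.139 FPKM or below in every library, Itga2b, Gp1ba and Gp1bb were at 0.540 FPKM or below, and Itgb3, which many cell types use, was 14.8 to 18.5 FPKM. The part of such cells in the level of Ppbp was not tested.

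Macrophage markers moved in the same direction as Ppbp and Pf4. All 9 were below Sham in every EGR1OV library, against 14.5% of 29404 genes, and the 7 tested were all called lower, against 6.51% of 13985 genes, with a median log2 change of -2.24 beside 0.02 over all genes tested. Lyz2, the macrophage lysozyme gene, fell by 3.19 ± 0.0609 on the log2 scale (SE, limma adjusted p = 2.74e-10), from 55.8, 58.6 and 58.6 FPKM in Sham to 6.13, 5.02 and 5.24 FPKM. In H/R, 2 of the 7 were called lower, Lyz2 and Adgre1, against 2.65% of all genes tested, with a median of -0.23 beside -0.03 over all genes. The part of macrophages in the levels of Ppbp and Pf4 was not tested. Neutrophil markers summed to 0.383 FPKM or below in every library and T and NK cell markers to 0.424 FPKM or below, and the part of these cells in any member's level was not tested. Stromal cells can be a source of Cxcl12, which fell in EGR1OV. Endothelial markers summed to 9.21 to 9.67 FPKM in Sham and 6.52 to 7.18 FPKM in EGR1OV. Fibroblast markers summed to 31.8 to 33.4 FPKM in Sham and 36.8 to 41.8 FPKM in EGR1OV. Most of the fibroblast sum was Col1a1 and Col1a2, both above Sham in every EGR1OV library, and only Col1a2 was called. Pdgfrb and Pdgfra had lower means in EGR1OV, with libraries that overlapped Sham, and Dcn and Lum were hardly detected. The fibroblast sum therefore does not show a rise across the fibroblast markers. The part of endothelial cells and fibroblasts in the Cxcl12 level was not tested.

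**Figure D5:**
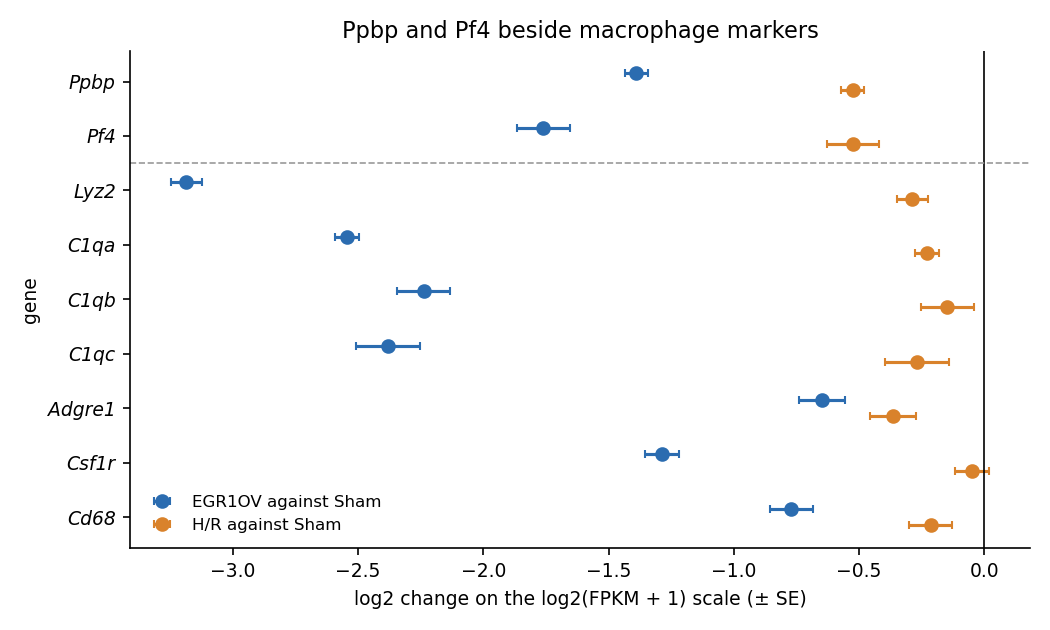
Log2 change against Sham, with SE, of Ppbp and Pf4 (above the dashed line) and of the 7 tested macrophage markers, on the log2(FPKM + 1) scale. Blue is EGR1OV and orange is H/R. All 9 blue points lie below 0, from -3.19 for Lyz2 to -0.65 for Adgre1.

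Among the other CXC ligands, Cxcl14, a chemokine of epithelia, fell in EGR1OV, from 3.03, 2.95 and 3.02 FPKM in Sham to 0.692, 0.770 and 1.01 FPKM, a log2 change of -1.14 ± 0.0724 (SE, limma adjusted p = 1.60e-06). Cxcl13 and Cxcl17 were at 0 in all Sham and H/R libraries and at 0.156 FPKM or below in EGR1OV. The receptors were scarce. Cxcr2, which takes the ELR ligands, was at 0.0596 FPKM or below in every library, and Cxcr3, which takes Cxcl9, Cxcl10 and Cxcl11, was at 0.0351 FPKM in 1 Sham library and at 0 in the other 8. Cxcr4, the Cxcl12 receptor, was 0.572, 0.634 and 0.402 FPKM in Sham and 0.266, 0.271 and 0.230 FPKM in EGR1OV, and it did not reach the level for testing. Cxcr6, the Cxcl16 receptor, did not pass 0.496 FPKM, Cxcr5 did not pass 0.0918 FPKM and the Ackr1 decoy did not pass 0.0431 FPKM. Ackr3, which scavenges Cxcl11 and Cxcl12, was the only receptor tested, and its log2 change of 0.11 ± 0.0923 in EGR1OV was not called (limma adjusted p = 0.360).

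Of 8 genes that process or present chemokines, 6 were tested, with a median log2 change of 0.09 in EGR1OV and -0.0046 in H/R. Mmp9, a gelatinase that trims ELR chemokines, was called higher in EGR1OV, from 54.1, 52.2 and 56.1 FPKM in Sham to 86.7, 81.6 and 82.0 FPKM, a log2 change of 0.61 ± 0.0483 (SE, limma adjusted p = 6.98e-06). Ext1, a heparan sulfate polymerase, was called higher in H/R, with a log2 change of 0.30 ± 0.0258 (SE, limma adjusted p = 3.62e-04). Adam10, the sheddase of Cxcl16, was 34.8 to 35.9 FPKM in Sham and 35.4 to 38.6 FPKM in EGR1OV and was not called.

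The regulators on the NF-kB side of chemokine transcription included 15 tested genes, of which 12 were called higher in EGR1OV and 0 lower by limma, with a median log2 change of 0.74. At an unadjusted p under 0.05, 14 were higher and 1 lower, and limma voom on recovered reads called that 1, the receptor Il1r1, lower. Il1b and Tnf reached the level for testing only through EGR1OV, so this count is a description. The share of all tested genes called was 9.87% higher and 6.51% lower. The 3 with the largest change were Il1b, Zc3h12a and Tnf. Il1b, a cytokine that induces ELR chemokines, changed by 2.78 ± 0.155. Zc3h12a, a nuclease that degrades chemokine transcripts, changed by 2.35 ± 0.0584, and Tnf by 1.996 ± 0.106 on the same log2 scale (SE, limma adjusted p of 6.31e-07, 1.71e-09 and 4.57e-07). In H/R, 3 of the 15 were called higher and 0 lower by limma, with a median of 0.03, against 1.6% and 2.65% of all genes tested, while 6 were higher and 1 lower at an unadjusted p under 0.05 and voom called 4 higher and 1, Tnf, lower. The 3 called by limma were the NF-kB subunits Nfkb2 and Relb and the inhibitor Nfkbia, with log2 changes of 0.33, 0.30 and 0.29. Nfkbia fell short of 1.2-fold without Sham replicate 3, at 0.25, and without H/R replicate 2, also at 0.25.

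Of the regulators on the interferon side, 14 were tested, of which 9 were called higher in EGR1OV and 0 lower by limma and by voom, with a median log2 change of 0.57, and 2 were lower at an unadjusted p under 0.05. Over all genes tested, limma called 9.87% higher and 6.51% lower, and Ifnb1, the interferon beta gene, is among the 9 only through its EGR1OV values. Irf7, an interferon regulatory factor, was 0.918, 0.942 and 0.610 FPKM in Sham and 218, 228 and 223 FPKM in EGR1OV, a log2 change of 6.95 ± 0.0752 (SE, limma adjusted p = 1.38e-11). The signal transducer Stat2 changed by 4.08 ± 0.0853 on the same scale (SE, limma adjusted p = 4.92e-10). In H/R, 0 of the 14 were called by limma and the median was -0.0011. An unadjusted p under 0.05 was found for 4 of them, and voom called 1, Irf9, lower. Ifnb1 was picked out after the values were seen. It had 0 reads in all Sham and H/R libraries and 38, 37 and 24 reads in the EGR1OV libraries.

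The genes whose pattern over the 9 libraries was nearest to 3 of the members were found by Euclidean distance of log2(FPKM + 1), centered on Sham, among 13977 tested genes that are no members. Nearest to Cxcl10 were Gbp2 (0.50), Ifi204 (0.85) and Ifi44 (0.91), all genes of the interferon response. Nearest to Cxcl1 were H2-Q5 (0.47), Oas3 (0.51) and C3 (0.52). H2-Q5 belongs to a set of near-identical class I genes and its reads are uncertain. Nearest to Cxcl12 were Adamts12 (0.11), Lhx1 (0.13) and 8030451A03Rik (0.15), which were also lower in EGR1OV, by log2 changes of -0.58, -0.52 and -0.56.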

How the data were processed

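Total RNA of cells lysed in TRIzol was sequenced on an Illumina NovaSeq. The authors deposited 1 table of FPKM for 9 libraries, with no pooling. The submitters' processing notes name HISAT2 2.1.0, Bowtie2 2.2.3, TopHat2 and mm9 without roles. The counter, the annotation and the handling of strand are not given in the sources used here. Positions are given as GRCm38, since 94.6% of gene positions, and those of all 10 members, equal GENCODE M21. Groups were taken from the sample titles.

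Reads were recovered from FPKM, exon length and the step between low values. Of 154337 values of 1 to 1000 reads, 98.7% were whole within 0.02. Depth was 16183617 to 18384022 reads per library, and the floor was 3 reads. Replicate pairs differed by more than sampling noise, so none were merged for the limma fits. The ratios of reads do sum the 3 libraries of a group, and their intervals leave out this spread.

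log2(FPKM + 1) was tested with limma 3.58.1 (R 4.3.3, lmFit, eBayes with trend) on all 9 libraries in 1 fit, for genes that averaged 0.5 FPKM or more, two-sided, with the p-values adjusted by Benjamini-Hochberg over 13985 genes. Every adjusted p is from this fit unless another is named. The fold thresholds against Sham (1.3 for EGR1OV, 1.2 for H/R) are the study's, and 1.3 was chosen here for EGR1OV against H/R. Ratios of reads are sums over 3 libraries divided by depth, with exact 95% intervals. Python 3.11.15 with scipy 1.17.1 gave the exact permutation tests. Code was tested on simulated data.

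The members and gene lists were chosen with earlier results of these data known. From the lists of other ligands, receptors and processing genes every called gene was named, from the regulator lists the 3 called genes with the largest change in each comparison, and from the marker lists those set beside a result. Receptors were all given by value. Some genes of these lists are not reported here. Alternatives were a pseudocount of 0.1, no minimum level, a minimum mean of 5 FPKM, scaling by median ratio or quantiles, a replicate block, only the groups compared, eBayes without trend, no fold or a 2-fold threshold, limma voom on recovered reads, and each library left out.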

Additional observations from a re-analysis of the deposited data

Results flagged for a closer look

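The 3 genes flagged were Cxcl12, Tnf and Irf9. Their log2 changes against Sham had opposite signs in the treated groups, and EGR1OV and H/R differed by the direct limma test. None of them was called in H/R in the main fit. Other genes, such as Il1b, Irf7 and Cxcl5, also had opposite signs and are not flagged here. Cxcl12 had a log2 difference of -0.72 (adjusted p = 7.23e-06), being lower than Sham in EGR1OV and not called in H/R. Tnf had a log2 difference of 2.28 (adjusted p = 1.69e-07). It was 0.482, 0.385 and 0.444 FPKM in Sham, 0, 0.232 and 0.344 FPKM in H/R and 4.63, 5.08 and 4.50 FPKM in EGR1OV. The H/R values rest on 0, 7 and 10 reads, and its change in H/R was not called (adjusted p = 0.124) except by voom on recovered reads (adjusted p = 0.0477). Irf9, an interferon regulatory factor, had a log2 difference of 2.46 (adjusted p = 2.46e-08). It was 3.76, 5.14 and 3.90 FPKM in Sham, 3.20, 3.13 and 3.55 FPKM in H/R and 23.0, 22.6 and 22.1 FPKM in EGR1OV, and its change in H/R was not called (adjusted p = 0.0678) except at a mean of at least 5 FPKM (adjusted p = 0.0378) and by voom (adjusted p = 0.00943).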

How the results depend on the processing

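The call of each tested member in each comparison stayed on its side of the threshold, and each called change kept its direction, in all 216 values with 1 library left out and in all 207 values under the alternatives that keep the fold threshold. With each library left out, the members called stayed at 8, 2 and 8 in EGR1OV against Sham, H/R against Sham and EGR1OV against H/R. At a mean of at least 5 FPKM, which leaves fewer members tested, 5 members were called in EGR1OV against Sham and 5 in EGR1OV against H/R, with 1315 genes called in all in EGR1OV against Sham, 372 in H/R against Sham and 1520 in EGR1OV against H/R. At a 2-fold threshold 7, 0 and 6 members were called and the genes called in all were 484, 11 and 489. With no fold threshold 8, 3 and 8 members and 6417, 1635 and 7135 genes were called, and limma voom on recovered reads called 1001 genes in H/R against Sham, where the main count was 594. Voom gave Cxcl12 in H/R an adjusted p of 0.03404, at a log2 change of 0.22 that is below 1.2-fold, and without a minimum level the adjusted p of Cxcl16 in H/R was 0.0597. In H/R, Egr1 at 0.26 was called but lost the call with no minimum level (adjusted p = 0.08803), in a fit of only the groups compared (0.05391), without trend (0.0527) and without Sham replicate 1 or 3, any 1 H/R replicate or EGR1OV replicate 2 (adjusted p up to 0.104). Among named genes that are no members, 17 values lost and 3 gained a call with a library left out, and 13 lost and 15 gained one under other alternatives, with no reversal among called values. The share of all calls that were higher in EGR1OV against H/R was 63.2%, with 52.1% under median-ratio scaling and 42.5% under quantile normalization. The cause of these shifts was not tested. Whether the replicate numbers pair the libraries could not be settled. The deviations of libraries with the same number correlated between -0.195 and 0.263, and those with different numbers between -0.222 and 0.179. A fit with the replicate block called 8, 2 and 8 members. Genes at a few reads per library, such as Cxcl3, Cxcl5 and Cxcl9 in Sham and H/R, are limited by depth.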
